A study of Arabidopsis thaliana with 54 samples.

Results

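The 150 features described here are small RNA features whose mean level stepped up with day length, once between 8 and 12 h of light and again between 12 and 16 h. They carry the prefix trex and a number in the deposited count table, which holds 223365 such features. Levels are CPM, which scales each library to the same total of counts outside a single row named genome. Features with a mean of at least 5 CPM were kept and the 100 most abundant were set aside, which left 3985. For each, the mean of log2(CPM + 1) was taken over the 18 libraries of each photoperiod, and the score was the smaller of the step from short day to equinox day and the step from equinox day to long day. The score was above 0 for 499 of the 3985, while 672 stepped down at both steps. The members are the 150 chosen by the highest score, and the difference between photoperiods was not tested. The sources used here do not give what a trex number stands for, its sequence or its place in the genome. Members are therefore called by their score rank, and only a few trex numbers are printed.

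The RNA came from whole seedlings (shoot, hypocotyl and root) of Arabidopsis thaliana Columbia 0, the genotype label of every group. All seedlings were stratified for 48 h and grown for 10 days with 12 h of light a day. From day 11 they were kept in short day (8 h light), equinox day (12 h light, the photoperiod they came from) or long day (16 h light), until the harvest on day 13. Sampling was at Zeitgeber time (ZT, hours after lights on) 4, 8, 12, 16, 20 and 24, with 3 libraries per time and photoperiod, lettered A, B and C, which gave 54 libraries in 18 groups. Equinox-day seedlings had no change of photoperiod, so in short and long day the effects of day length and of the switch cannot be told apart. The labels do not say whether libraries of 1 group came from separate plates, and p-values therefore describe the spread between libraries, which may be technical. In whole seedlings, a change in the share of a tissue and a change of the RNA per cell cannot be told apart.

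Plant small RNAs are mostly microRNAs cut from hairpin precursors and small interfering RNAs cut from double-stranded RNA, beside fragments of longer transcripts. Daily rhythms of RNA in seedlings come from light itself and from the circadian clock, which keeps time in the dark and is reset at dawn and dusk. Day length shifts both, because dusk falls at another hour of the clock. The means that chose the members weigh light and dark hours unequally. With the lights-off libraries counted as light, 6 of 18 short-day, 9 of 18 equinox-day and 12 of 18 long-day libraries fell in light. A feature higher in light therefore gains in score from this weighting alone. The tests given here compare times within a photoperiod, and each p of a single member rests on differences that the means do not hold, but the share of members that pass is not independent of the rule.

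The libraries held 1.33 to 3.59 M counts outside the genome row, and that row took 79.6% to 92.9% of all counts. The mean share of the genome row was 86.1% in short day, 86.9% in equinox day and 84.9% in long day. Of the short-day libraries, 5 lay beyond all equinox-day and long-day libraries on the first principal component (ZT 4 B, ZT 12 C, ZT 16 B, ZT 20 A and ZT 24 C). Chosen without these 5, 126 of the 150 members would be the same. The table holds microRNA and trex features and no messenger RNA rows, so tissue markers could not be looked up.

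The 2 steps that define the members were of similar size, and they are a description because the rule used them. The median step was 0.35 between short day and equinox day and 0.34 between equinox day and long day, in log2(CPM + 1). The first step was the larger for 77 members and the second for 73. The SD over the 18 libraries of a photoperiod, which span the times of day, was larger than these steps. Its median was 0.61 in short day, 0.68 in equinox day and 0.67 in long day (log2). Long day exceeded short day by a median of 0.74, with a range of 0.36 to 2.17, and by at least 2-fold on this scale in 33 members. Most members were of low abundance, with a median of 13.8 CPM, against 13.5 CPM for all 3985 eligible features. The range was 5.18 to 682 CPM, 55 members lay under 10 CPM and 11 at 100 CPM or more. The 5 most abundant held 40.2% of the members' counts. The score was 0.84 for the first member and 0.1753 for the last, and the first feature outside scored 0.1746. No member had all 18 long-day libraries above all 18 short-day libraries, and neither did any other eligible feature (0.0%).

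**Figure D1:**
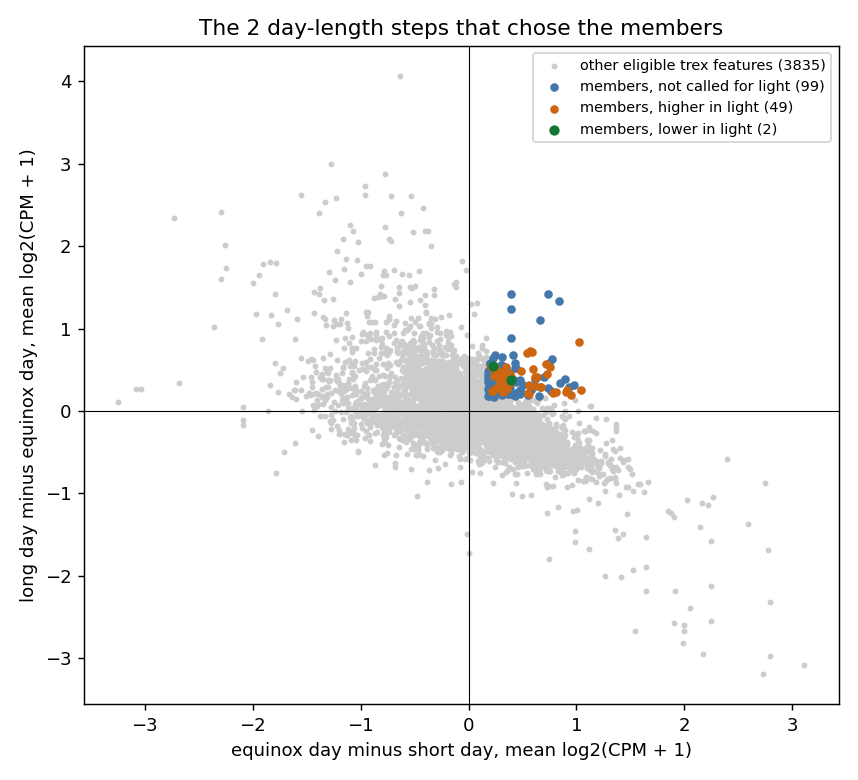
Mean difference in log2(CPM + 1) between equinox day and short day (horizontal) and between long day and equinox day (vertical) for 3985 eligible trex features, 1 point each, with members coloured by their light test. The members fill the upper right corner beyond 0.1753 on both axes by construction, and those higher in light lie among the others.

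Many members differed between light and dark hours, which the rule favours through its uneven share of light libraries. In light, 49 of the 150 members were higher than in dark and 2 were lower, averaged over the 3 photoperiods (32.7% and 1.33% of members). Of all 8869 features tested, 7.42% were higher and 1.69% lower in light, and of the eligible trex features 8.16% and 2.18%. Nothing is read from this excess. The same rule run on ZT 4, 8, 20 and 24 alone, where all photoperiods share the light state, picked 150 features of which 8 were higher and 7 lower in light. That setting was chosen after seeing the data, and it shares 70 features with the 150 members, 7 of them among the 49. Libraries taken up to and including lights off counted as light, the later ones up to ZT 24 as dark. Calls are an adjusted p under 0.05 in edgeR's quasi-likelihood test, adjusted over the 8869 by the Benjamini-Hochberg method. The median log2 fold change, light over dark, was 0.09 over the members and -0.10 over all tested features, and 99 members passed in neither direction. Among the 49 called higher, it ran from 0.47 to 3.34 with a median of 1.22, and 28 were at least 2-fold higher. Without the 5 short-day libraries that lay apart, the number higher in light was also 49, and over the other processing settings, with the 150 members held, it ran from 37 to 53. The medians of the 49 in light and dark were 13.0 and 5.47 CPM in short day, 15.1 and 6.80 CPM in equinox day, and 16.5 and 8.96 CPM in long day.

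The light difference was also tested in each photoperiod alone. The test averaged over photoperiods is made of these 3 contrasts, so they are its parts. Because the rule favours features higher in light, the shares below are not read against the background. In short day 35 members were higher in light, in equinox day 40 and in long day 38, against 3.74%, 3.89% and 6.48% of all tested features and 3.52%, 4.02% and 8.01% of eligible ones. Lower in light were 1 member in short day, 1 in equinox day and 4 in long day, against 0.282%, 0.767% and 7.92% of all features and 0.402%, 1.05% and 11.0% of eligible ones. In all 3 photoperiods, 29 members were higher in light, against 1.96% of features. Within 1 photoperiod light and hour of the day cannot be told apart. ZT 12 and ZT 16 counted as light in some photoperiods and as dark in others, where light state cannot be told apart from photoperiod. With the libraries at lights off and at ZT 24 left out, the members higher in light came to 24 in short day, 25 in equinox day and 10 in long day. Without the B libraries, they came to 25 in each of short and equinox day and to 15 in long day. Without the C libraries, the count was 21 in short day and 22 in equinox day. For these smaller fits the shares of all features were not counted. The 150 features of the mirror-image rule, those that step down with day length, had 3 members higher and 17 lower in light, a direction that the same uneven weighting favours.

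The time tests and the interaction also pick up light differences, so their shares are set beside the background without reading them against it. Over all times, 40 members changed through the short day, 43 through the equinox day and 47 through the long day. The same joint test of 6 times called 4.0%, 5.2% and 13.3% of all features and 4.17%, 7.31% and 19.7% of eligible ones. In at least 1 photoperiod 60 members changed and in all 3 photoperiods 28, against 17.7% and 1.4% of features. The time course differed between photoperiods, by the interaction of photoperiod and time, for 45 members, against 5.92% of all features and 8.56% of eligible ones. Of the 49 members higher in light 39 passed it (79.6%), against 29.6% of all tested features higher in light and 28.3% of eligible ones. ZT 12 and ZT 16 differ in light state between photoperiods, so a light difference also enters this test. None of the 8 tests called 82 members, against 74.6% of all features. The interaction called fewer members with a letter left out, 24 without the A libraries, 2 without the B libraries and 21 without the C libraries. The time tests without the B libraries called 18 members in short day, 9 in equinox day and 5 in long day. The shares of all features in these smaller fits were not counted, so whether members lose calls more than other features is unknown.

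**Figure D2:**
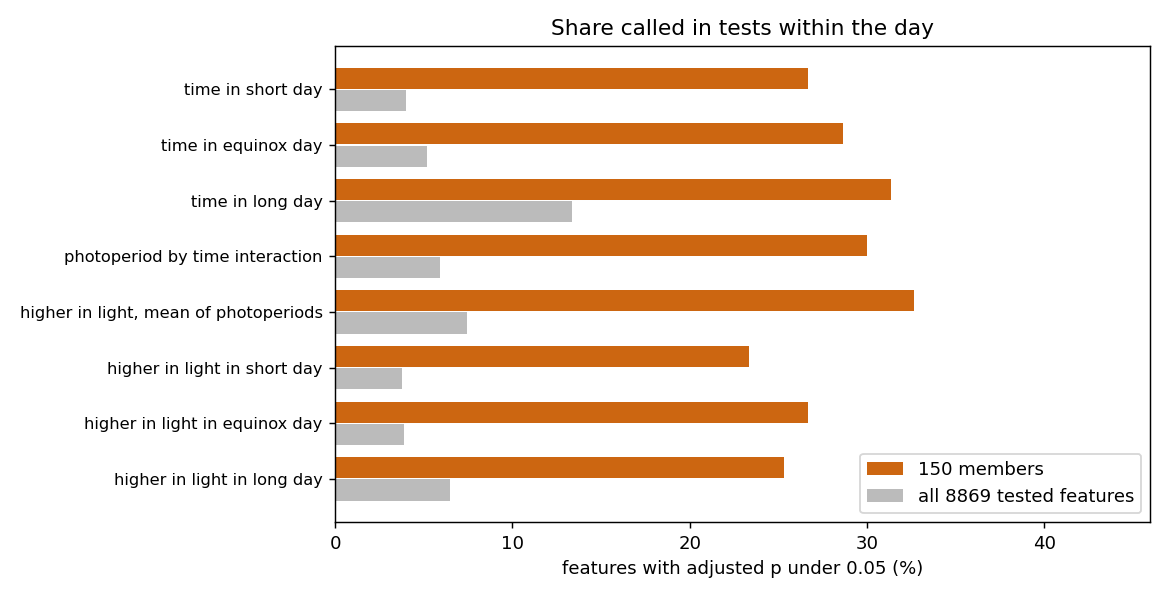
Share of the 150 members and of all 8869 tested features called at an adjusted p under 0.05 (%), for 8 tests within the day. The bar of the members is the longer in each of the 8, as with 32.7% against 7.42% for higher in light over the mean of the photoperiods, and the rule that chose the members favours features higher in light.

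The member of rank 34 had the smallest p of the light test together with rank 90, and it was high through the light hours and low in the night. In short day it had 119, 229 and 274 CPM at ZT 4 and 196, 207 and 252 CPM at ZT 8 in light. Its first dark libraries there, at ZT 12, had 71.3, 43.4 and 68.6 CPM, and those at ZT 20 had 7.16, 11.4 and 11.7 CPM. No dark library of any photoperiod reached a light library of its own photoperiod. In long day the level was still 94.8, 79.1 and 122 CPM at ZT 16, when short-day libraries were at 18, 14.6 and 13.7 CPM. Light over dark gave a log2 fold change of 3.31 ± 0.18 (SE) with an adjusted p of 1.38e-19. At ZT 4 and ZT 8 long day had the lowest group means. They were 207 ± 79.6, 154 ± 125 and 122 ± 47.3 CPM at ZT 4 in short, equinox and long day (± SD, n = 3). At ZT 8 they were 219 ± 29.8, 226 ± 99.2 and 165 ± 19.2 CPM. Long day was above short day at 4 of the 6 times. Rank 34 did not follow day length in mean CPM, at 87.0 in short day, 105 in equinox day and 93.7 in long day. It is the single member whose mean CPM departs from the order of its log means. Rank 90 ran with it (r = 0.98 over 54 libraries) and differed by 3.07 ± 0.17 between light and dark (log2, adjusted p = 1.38e-19).

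Other members were highest at lights off, whatever the hour. Rank 6 is an example. At lights off it had 50.2, 53.7 and 56.3 CPM in short day (ZT 8), 106, 87.7 and 112 CPM in equinox day (ZT 12), and 120, 128 and 180 CPM in long day (ZT 16). The 3 photoperiods did not overlap at that point, with the lowest in short day. At the next time, 4 h into the dark, it had 15.2, 16.1 and 24.5 CPM in short day, 31.6, 29.5 and 39.4 CPM in equinox day, and 44.4, 53.1 and 44.1 CPM in long day. It was higher in light (log2 fold change 1.22 ± 0.14, adjusted p = 1.40e-09), and its time course differed between photoperiods (adjusted p = 0.000172, but 0.145 without the B libraries). The peak of group means fell at lights off in all 3 photoperiods for 14 members (9.3%), against 1.1% of eligible features (the rule favours this too), and 13 of the 14 were among those higher in light. A peak at any light time in all 3 photoperiods was seen in 53 members (35.3%, against 11.84% of eligible features), and a peak at a dark time in 22 (14.7%, against 22.36%).

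Rank 9 also peaked at lights off in every photoperiod. It had 78.1, 108 and 61.3 CPM at lights off in short day, 180, 129 and 127 CPM in equinox day, and 178, 173 and 204 CPM in long day. At ZT 4, when every photoperiod had been in light for the same time, it already stood at 56.9, 48.0 and 44.1 CPM in short day, 39.4, 58.0 and 68.1 CPM in equinox day, and 130, 126 and 124 CPM in long day. Long-day libraries thus lay above the other photoperiods at ZT 4 with no overlap. The light difference was 0.91 ± 0.13 in log2 units (adjusted p = 1.66e-07).

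The member of rank 77 moved its peak with lights off while the height of the peak overlapped between photoperiods. At lights off it had 68.1, 89.2 and 106 CPM in short day, 90.7, 87.7 and 74.9 CPM in equinox day, and 122, 70.5 and 92.6 CPM in long day. At ZT 12 it had 52.3, 58.4 and 57.6 CPM in long day, where it was light, against 18.7, 14 and 17.7 CPM in short day, where it was dark. The interaction of photoperiod and time had an adjusted p of 1.47e-05, and the light difference was 2.21 ± 0.16 (adjusted p = 2.24e-15). Rank 47 had the smallest interaction p of all members (adjusted p = 3.58e-06), with a light difference of 2.46 ± 0.17 (adjusted p = 2.49e-16). The interaction passed under all 65 alternatives for ranks 47 and 77, whereas the other cited members that passed it lost it without the B libraries (adjusted p from 0.145 to 0.532). Rank 2 had 1.26 to 15.4 CPM (median 3.98) in short day, 2.02 to 44.0 CPM (median 9.23) in equinox day and 2.66 to 51.8 CPM (median 21.9) in long day, with overlap, and its log2 light difference was 1.70 ± 0.20 (adjusted p = 2.27e-09).

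**Figure D3:**
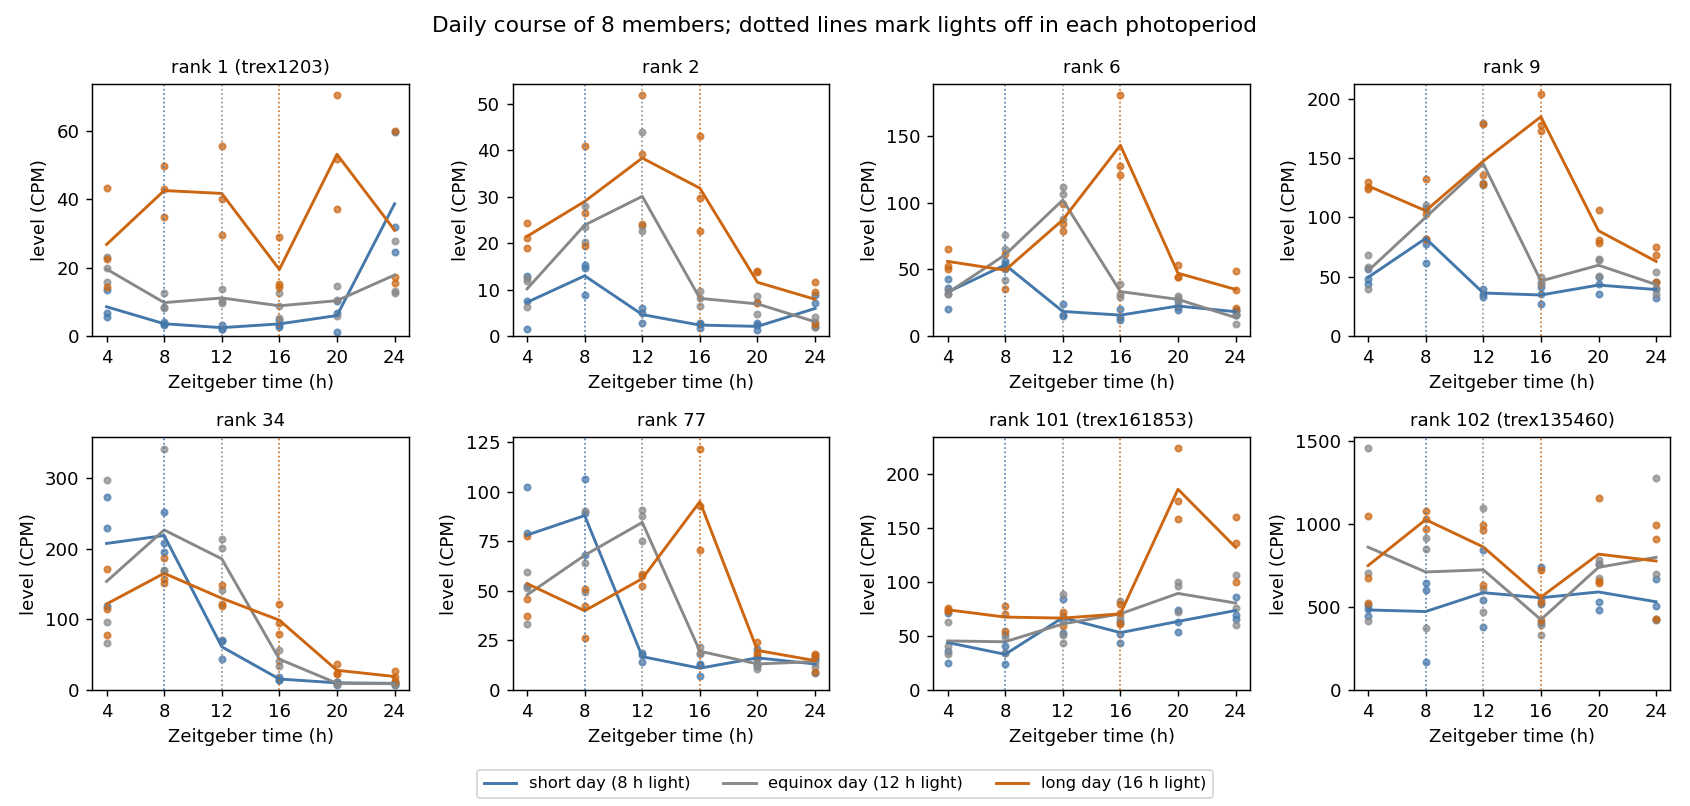
Level in CPM (vertical, from 0) by Zeitgeber time (h) for 8 members, with short day in blue, equinox day in grey and long day in orange. Points are libraries, lines join the means of 3, and dotted lines mark lights off. Ranks 6, 9 and 77 peak at lights off in every photoperiod, rank 34 is low in every night, and rank 101 is highest in the long-day night.

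The other members of the first 10 ranks were mixed. Rank 8 had its highest group means at lights off, with 26, 25.9 and 25.7 CPM in short day, 66.4, 58.8 and 40.3 CPM in equinox day, and 53.1, 43.4 and 81.8 CPM in long day. Its light difference was 0.87 ± 0.13 (adjusted p = 5.97e-07, but 0.0775 with the lights-off and ZT 24 libraries left out). Rank 7 had 0.981 to 9.30 CPM in short day, 3.57 to 14 CPM in equinox day and 5.96 to 29.4 CPM in long day, and it passed neither the light test (adjusted p = 0.154) nor a time test, the nearest being long day (adjusted p = 0.0538, with a pass under 35 of 65 alternatives). Rank 10 was among the rarest members, at 0.49 to 8.51 CPM in short day, 1.37 to 9.07 CPM in equinox day and 2.49 to 12.9 CPM in long day. Its light difference was 0.55 ± 0.17 (adjusted p = 0.0345), and the call was lost under 20 of 66 alternatives, among them 16 of the single libraries left out (adjusted p from 0.0505 to 0.0994). These were ZT 8 B, ZT 12 B, ZT 16 A, ZT 20 A, ZT 24 A and ZT 24 B of long day, ZT 4 A, ZT 16 C, ZT 20 B, ZT 24 A and ZT 24 B of equinox day, and ZT 4 A, ZT 8 C, ZT 12 A, ZT 12 C and ZT 20 A of short day.

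Only 2 members were lower in light. The feature trex161853 (rank 101) stood in long day at 71.2, 61.3 and 79.2 CPM at lights off and at 224, 175 and 159 CPM 4 h later, with no overlap. In short day it had 40.7, 34 and 24.3 CPM at lights off and 64.2, 53.1 and 83.8 CPM 4 h later. Light over dark was -0.81 ± 0.12 (adjusted p = 1.11e-06), and the interaction gave an adjusted p of 0.711. The feature trex156874 (rank 29) was rare, at 1.39 to 12.6 CPM in short day, 1.44 to 20.6 CPM in equinox day and 0.583 to 37.5 CPM in long day. Its light difference was -0.79 ± 0.25 (adjusted p = 0.0311), and it lost the call on leaving out any of 17 single libraries (adjusted p from 0.052 to 0.102). These were ZT 4 C, ZT 20 A and ZT 24 C of long day, ZT 8 B, ZT 8 C, ZT 12 B, ZT 12 C, ZT 16 A, ZT 20 A and ZT 24 C of equinox day, and ZT 4 A, ZT 8 B, ZT 8 C, ZT 12 A, ZT 16 A, ZT 20 B and ZT 24 B of short day. The third by p, rank 125, did not pass (log2 light difference -0.33 ± 0.17, adjusted p = 0.266).

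The highest score belonged to trex1203, which did not pass the light test. It had 1.26 to 59.6 CPM (median 4.45) in short day, 5.26 to 27.9 CPM (median 12.6) in equinox day and 14.4 to 70.3 CPM (median 36.1) in long day, and the photoperiods overlapped. In short day its highest libraries were those of the end of the night. At ZT 24 long-day libraries had 17.3, 15.7 and 60.0 CPM, against 59.6, 31.8 and 24.7 CPM in short-day libraries, and the other short-day times stayed between 1.26 and 13.4 CPM. Light and dark gave a log2 fold change of -0.14 ± 0.19 (adjusted p = 0.745). Time changed it in short day (adjusted p = 1.64e-06), while equinox day had an adjusted p of 0.0897 and long day of 0.42, and the interaction had an adjusted p of 0.0032 (0.0974 without the A libraries, 0.511 without the B libraries). The members of rank 3 and 23 ran with it in pairs (r = 0.95 for ranks 1 and 3, and 0.96 for ranks 3 and 23) across the 54 libraries. Rank 4 was also highest at ZT 24 in short day, at 25.6, 20.9 and 20.8 CPM (time test adjusted p = 0.00574, but 0.126 without the short-day library ZT 24 A). Rank 5 passed none of the time tests (adjusted p = 0.541 in short day, 0.454 in equinox day and 0.745 in long day).

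The most abundant members passed neither the light test nor a time test. The feature trex135460 (rank 102) had 167 to 842 CPM (median 516) in short day, 329 to 1460 CPM (median 686) in equinox day and 422 to 1158 CPM (median 817) in long day. Its light difference was 0.06 ± 0.16 (adjusted p = 0.892), and its groups overlapped widely. The next 4 by abundance, of ranks 141, 149, 130 and 36, averaged 635, 586, 499.7 and 490.3 CPM, and none passed the light test (adjusted p from 0.0664 to 0.923), although rank 36 did under 23 of 66 alternatives. The last member, rank 150, had medians of 44.9 CPM in short day, 53.3 CPM in equinox day and 60.9 CPM in long day, and it passed neither test (light adjusted p = 0.753).

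The hours at which long day exceeded short day differed in the values between the members called for light and the others, with no test of that difference. Long-day and short-day libraries both counted as light at ZT 4 and ZT 8, and both as dark at ZT 20 and ZT 24. For the 49 members higher in light, the mean over ZT 4 and ZT 8 was higher in long day for 25 of 49, with a median difference, long day minus short day, of 0.01. At ZT 12 and ZT 16, where long-day but not short-day libraries counted as light, it was higher for 49 of 49 with a median of 2.01. At ZT 20 and ZT 24 it was higher for 46 of 49 with a median of 0.63. The 99 members not called for light had a difference at every pair of times. It was 0.86 at ZT 4 and ZT 8 (98 of 99 members), 0.64 at ZT 12 and ZT 16 (83 of 99) and 0.82 at ZT 20 and ZT 24 (97 of 99). These are descriptions, since the same libraries chose the members and split them by the light test. That test counts ZT 12 and ZT 16 as light in long day and as dark in short day. The split itself therefore favours a difference at these times. Over eligible features at single times, the share with long day above short day ran from 32.3% (ZT 16) to 68.3% (ZT 20).

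**Figure D4:**
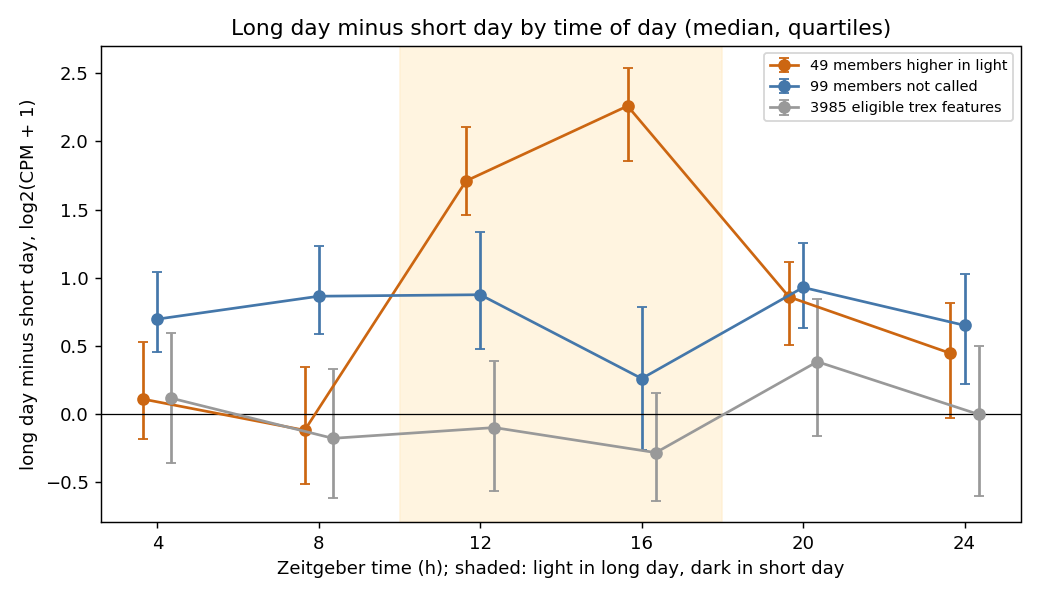
Long day minus short day in log2(CPM + 1) by Zeitgeber time (h), as the median with quartiles over features. The light test that split the members used these same libraries. The 49 members higher in light peak at 2.26 at ZT 16 and lie near 0 at ZT 4 and ZT 8, the 99 members not called stay between 0.26 and 0.93, and the 3985 eligible features stay between -0.28 and 0.38.

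Single times carried the order of the photoperiods unevenly. Long day above equinox day above short day held for 73 members at ZT 4, 85 at ZT 8, 84 at ZT 12, 84 at ZT 16, 100 at ZT 20 and 71 at ZT 24. The same order held for 16.5%, 14.2%, 12.7%, 10.0%, 33.6% and 17.8% of eligible features. All 3 long-day libraries lay above all 3 short-day libraries for 51, 73, 95, 76, 94 and 41 members at these times, against 7.98%, 12.3%, 9.41%, 10.8%, 31.9% and 12.3% of eligible features. Since the rule used these libraries, nothing is read from the excess. Long day was above short day for 128, 119, 145, 115, 146 and 121 members (56.2%, 40.9%, 44.3%, 32.3%, 68.3% and 49.8% of eligible features). Long day was above short day at all 6 times for 60 members (4.27% of eligible features), at 5 for 61, at 4 for 22 and at 3 for 7. The full order of 3 photoperiods held at 4 or more times for 67 members (3.09% of eligible features) and at all 6 for 4.

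Replicate letters gave the order in most but not all members. Averaged over the 6 times, it held for 113 members in the A libraries, 124 in the B libraries and 137 in the C libraries, and for 90 in all 3 letters. The share of eligible features with this order was 10.2% for A, 10.1% for B, 23.9% for C and 2.79% for all 3. Each letter is a part of the libraries that chose the members, so these counts are a description and the excess is not read. Long day was above short day for 148, 146 and 150 members. The median steps were 0.31 and 0.35 in A, 0.32 and 0.28 in B, and 0.50 and 0.50 in C, the step to equinox day first. The same letter does not mark a shared culture or day in the labels.

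Summed over the 150 members, the level was 5475 ± 889 CPM in short day, 7101 ± 1744 CPM in equinox day and 8986 ± 1713 CPM in long day (mean ± SD, n = 18 each). The rule chose the members for this order in the same libraries, so the rise of the sum is only a description. The sum made up 0.382% to 1.16% of the counts outside the genome row. Single libraries overlapped, with 3817 to 6862 CPM in short day, 4346 to 10589 CPM in equinox day and 5736 to 11596 CPM in long day. The lowest long-day group mean was 7239 ± 1364 CPM at ZT 16 (n = 3). The sums are plain CPM, without the TMM scaling factors used in the tests. These factors were 0.773, 0.793 and 0.880 in the long-day libraries at ZT 16, against 1.01, 1.17 and 1.25 at ZT 20. Whether the low at ZT 16 holds under that scaling was not tested. The 5 most abundant members, with 40.2% of the members' counts, weigh heavily in the sum.

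**Figure D5:**
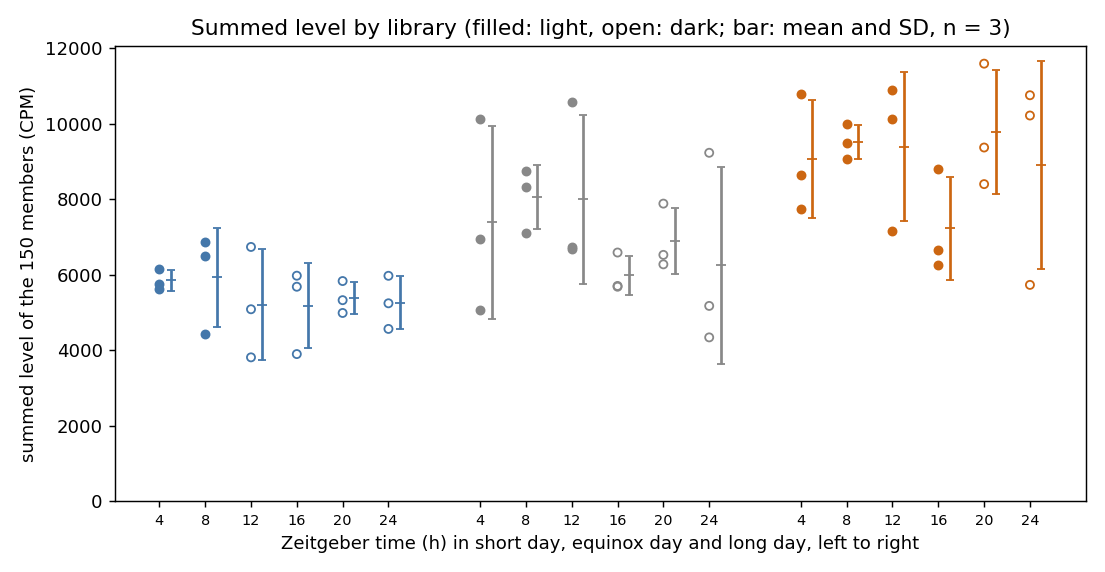
Summed level of the 150 members (CPM, from 0) in each library by Zeitgeber time (h), short day left, equinox day middle, long day right, with the mean and SD of 3 beside the points. Filled points are light and open points dark. Short-day sums reach 6862 CPM at most, and the long-day group means lie between 7239 and 9792 CPM. The same libraries chose the members for this rise with day length.

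Some members ran together closely across libraries. Among 11175 pairs, 5 had a correlation above 0.95 across the 54 libraries in log2(CPM + 1), against a median of 0.28 (libraries share depth, group and time). These pairs join 9 members into 4 sets, of ranks 1, 3 and 23, ranks 34 and 90, ranks 79 and 134, and ranks 84 and 85. Counting each set once leaves 145 members, and 47 in place of 49 higher in light. How reads that match several features were counted is unknown here, and whether such members share reads was not tested.

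MicroRNAs, scored in the same way but with no abundant features set aside, had a score above 0 about as often as trex features. Of 123 microRNA features with a mean of at least 5 CPM, 15 had a score above 0 (12.2%, against 12.5% of eligible trex features) and 4 scored above the last member (3.25%, against 3.76%). Stepping down at both steps were 47 (38.2%, against 16.9%), and these shares were not tested. The highest was miR169f-3p, at 54.7 ± 22.1 CPM in short day, 102 ± 55.2 CPM in equinox day and 121 ± 43.8 CPM in long day (SD, n = 18 each). It was also higher in light (log2 fold change 0.41 ± 0.13, adjusted p = 0.0405). The others by score were miR390b-3p (0.31), the shared feature of miR398b-3p and miR398c-3p (0.29), which targets superoxide dismutase transcripts, miR395a/d/e (0.18), which targets ATP sulfurylase transcripts, and miR831-3p (0.15). Of these 4, none passed the light test (adjusted p from 0.182 to 0.9985).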

How the data were processed

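Small RNA of up to 40 nucleotides was sequenced from 54 seedling libraries. The deposited table holds the authors' read counts per feature, as whole numbers. Tools named, per the submitters' processing notes, were cutadapt 3.4 and Bowtie2 2.5.1 with SAMtools. Build, counting rule and treatment of reads that match several features are not stated in the sources used here. The genome row was left out of totals and tests. The members, the comparison sets and the tests were chosen with earlier results of these data known. The fit in edgeR 4.0.16 under R 4.3.3 had 1 coefficient per group, TMM factors and filterByExpr (minimum count 10, total 15), which left 8869 features, all 150 members among them. The fit had 36 residual degrees of freedom, and 8 contrasts within the day were tested by the quasi-likelihood test with Benjamini-Hochberg adjustment at 0.05. The fit was tested on simulated counts. Members are cited by a rule: score ranks 1 to 10, the 5 of highest mean CPM, the smallest p of each test, rank 150, and the 5 microRNAs of highest score. Numbers are printed for 4. The alternatives were other scaling, filters, DESeq2 1.42.0, a replicate block, left-out letters and libraries, and other settings of the rule. Replicates of a group differed by more than counting noise in all 54 pairs, so none was counted as a duplicate.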

Additional observations from a re-analysis of the deposited data

Results flagged for a closer look

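The time course differed between photoperiods, by the interaction test of edgeR with Benjamini-Hochberg adjustment, for 11 of the members cited. Some of these were cited for a small p, so the 11 are not a share of the members. Of the 150 members 45 passed, against 5.92% of all features and 8.56% of eligible ones, and nothing is read from this excess. The adjusted p was 0.0032 for trex1203, 0.0342 for rank 2, 0.00452 for rank 3, 0.0331 for rank 4, 0.000172 for rank 6, 0.00503 for rank 8 and 0.00244 for rank 9. It was 0.00314 for rank 34, 3.58e-06 for rank 47, 1.47e-05 for rank 77 and 0.0125 for rank 90. Without the B libraries only ranks 47 and 77 kept the call, and the others had an adjusted p from 0.145 to 0.532 in the same test. Ranks 6, 9 and 77 peaked at lights off in each photoperiod, and trex1203 and ranks 3 and 4 were highest at ZT 24 in short day.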

How the results depend on the processing

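With the 150 members held, the light test averaged over photoperiods kept its count within 1.5 times under each of 66 alternatives, and with 1 library left out 49 to 53 members were called. The other 7 counts also stayed within 1.5 times with any 1 library left out: 38 to 49 for time in long day, 31 to 43 in equinox day and 33 to 43 in short day, 40 to 49 for the interaction, and for light against dark 32 to 46 in long day, 35 to 43 in equinox day and 31 to 39 in short day. With all libraries of a letter left out, which leaves 2 libraries a group, the counts called ran from 5 to 29 for time in long day, 9 to 20 in equinox day and 18 to 30 in short day, and from 2 to 24 for the interaction. For light against dark they ran from 15 to 31 in long day, 22 to 27 in equinox day and 21 to 32 in short day. The fit with no filter on low counts had more tests and its own estimate of the spread. It called 21 members for time in long day, 16 in equinox day and 23 in short day, and 25 for the interaction. For light against dark it called 17 in long day and 21 in equinox day. With the lights-off and ZT 24 libraries left out, 11 were called for light in long day and 26 in equinox day. The replicate block changed none of the 8 counts by over 1.5 times (51 for light, 46 for the interaction), but libraries of a block share only a letter. The deviations from the group means of libraries in different groups were compared by their correlation. Its median was -0.012 over 459 same-letter pairs (range -0.611 to 0.678). For pairs of different letters the median was 0.007 (range -0.593 to 0.669). Of the 150 members, the rule kept 38 with the genome row in the totals, 83 at a mean of at least 2 CPM, 95 at 10 CPM (95 members reach it), 98 by medians, 70 with only times of shared light state, and 99 to 110 with a letter left out. Settings chosen after seeing the data, with the eligible features held, kept 99 with the genome row in the totals and 92 scaled to microRNA counts, and all 150 kept their order in both. The cause of these shifts was not tested. Counted over the 150 features that the rule picks on times of shared light state, also chosen after seeing the data, 8 were higher in light in place of 49. The alternative fits were counted for the members only, so their counts have no share of all features beside them. How calls depend on depth was not tested, and 55 members lie under 10 CPM.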
